A study of Drosophila melanogaster with 3 samples.

Results

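Of the 30000 peaks called on the pooled replicates, 1138 had their summit in an annotated exon of a protein-coding transcript and more than 500 bp from any protein-coding transcription start site (TSS). They made up 3.79% of the pooled peaks (95% Wilson interval, 3.58 to 4.02%; the intervals given here cover counting error only). By class, 312 summits lay in coding sequence (CDS), 295 in a 5' UTR and 531 in a 3' UTR. Of the 1138, 131 (11.5%) were also in the list that the authors derived by the irreproducible discovery rate (IDR), a measure of how well peak ranks repeat between replicates, beside 23.9% of all pooled peaks. The chromatin immunoprecipitation with sequencing (ChIP-seq) came from whole Drosophila melanogaster embryos, 4 to 16 hours old, of the strain unpg-GFP. This line stably carries a transgene for unpg with GFP at the C terminus. No other genotype or treatment was analysed here, and the 3 biological replicates, numbered 3, 4 and 5, formed 1 group. The labels disagree on the antibody, naming anti-GFP in the sample descriptions and unpg in the antibody field. They do not say where the replicates were collected, so SDs over replicates measure the spread between these samples. Values come from a mixture of all embryonic tissues, in which fewer cells with a peak and less binding per cell cannot be told apart.

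Unplugged (unpg) is a homeodomain transcription factor known from the embryonic nervous system and the cerebral branches of the trachea. Homeodomain proteins hold DNA with a recognition helix in the major groove, and most of them favour AT-rich words around a TAAT core. Enhancers in flies are usually placed in introns and between genes, but exons can hold regulatory DNA too. Coding sequence in flies is richer in G and C than introns and 3' UTRs, so a summit in an exon lies in DNA of a different base composition. A 5' UTR exon of one transcript is often intron or promoter-proximal DNA for another transcript of the same gene.

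The sequences of 7 CDS summits are shown because the results on coding members turn on their base composition. The first 6 are CDS members of the IDR list in which the 29 bases centred on the summit are all coding and lie in no annotated UTR, noncoding gene or transposable element. The windows of CG4822, CG10962 and l(3)mbn do not meet this, and those of otp and jing are not shown. The last, in kibra, was a CDS member outside the IDR list, taken from a search that did not cover every CDS member. It was found in all 3 replicate lists and held the word CAGGTG in those 29 bases. All run 5′ to 3′ on the strand of the gene, come from the Release 6 reference genome (dm6), and have the searched words in capitals (CAGGTG, or CACCTG when read from the opposite strand).
Pde1c, chr2L:11816568-11816596, minus strand: gagccagctgcggagccggcagatggcgc
klar, chr3L:506260-506288, minus strand: cagtctgcacagcagcgccaccttgggtc
Tim17b1, chr3R:5300786-5300814, plus strand: attattcggcggattcctaccgcCAGGTG
Snx27, chrX:5737250-5737278, minus strand: caccatttacaaaacggaaacgggcttcg
scrib, chr3R:26567120-26567148, plus strand: cggccaacaatgtaaaggcagcaacagca
su(w[a]), chrX:1041586-1041614, plus strand: tgatcgatggtattgtgattatggcgtta
kibra, chr3R:14723514-14723542, minus strand: cgcagcatcatctgcatccccacCACCTG
The GC content of these 29 bases was 75.9% in Pde1c, 65.5% in klar and 62.1% in kibra. It was 55.2% in Tim17b1, 51.7% in scrib and 48.3% in Snx27. The stretch in su(w[a]) was the most AT-rich of the 7, at 37.9% GC.

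Summit density per length of sequence differed between the classes. CDS more than 500 bp from a TSS covered 18.7 Mb and held 16.7 summits per Mb. Eligible 3' UTR covered 6.05 Mb and held 87.8 per Mb, and eligible 5' UTR covered 1.06 Mb and held 278 per Mb. The 6 chromosome arms together, 134 Mb, held 224 pooled summits per Mb. This overall density includes sequence and summits within 500 bp of a TSS, among them 7255 promoter summits, which the class densities leave out. No overall density matched for distance from a TSS was computed. The 5' UTR density was above the unmatched value and those of 3' UTR and CDS were under it. Peaks of the IDR list had densities of 0.589 per Mb in CDS, 11.9 in 3' UTR and 45.2 in 5' UTR, beside 53.6 over the arms. The order among the 3 classes was the same, but in the IDR list the 5' UTR density was under the unmatched overall value. That value includes 2636 promoter summits of the IDR list. Whether the 5' UTR density was under that of all sequence more than 500 bp from a TSS was not tested. The members were found on all 6 arms, with 196 on 2L, 228 on 2R, 211 on 3L, 236 on 3R, 265 on X and 2 on the small chromosome 4.

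The class counts were recomputed in each replicate's own list, which also holds 30000 peaks. CDS summits numbered 572 in replicate 3, 413 in replicate 4 and 324 in replicate 5 (mean 436 ± 126, SD, n = 3). For the 5' UTR the counts were 284, 291 and 324 (300 ± 21.4, SD, n = 3). For the 3' UTR they were 513, 633 and 705 (617 ± 97.0, SD, n = 3). The total was nearly constant at 1369, 1337 and 1353, while replicate 3 had the most CDS summits and the fewest 3' UTR summits. In the 15000 strongest peaks of each list, CDS summits numbered 50, 53 and 53 and 3' UTR summits 186, 191 and 212. In as many of the strongest peaks as the IDR list holds, CDS summits numbered 10, 16 and 9 and 3' UTR summits 69, 68 and 75. Replicate 3 thus did not have the most CDS summits among its stronger peaks, while replicate 5 had the most 3' UTR summits at each length.

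**Figure D1:**
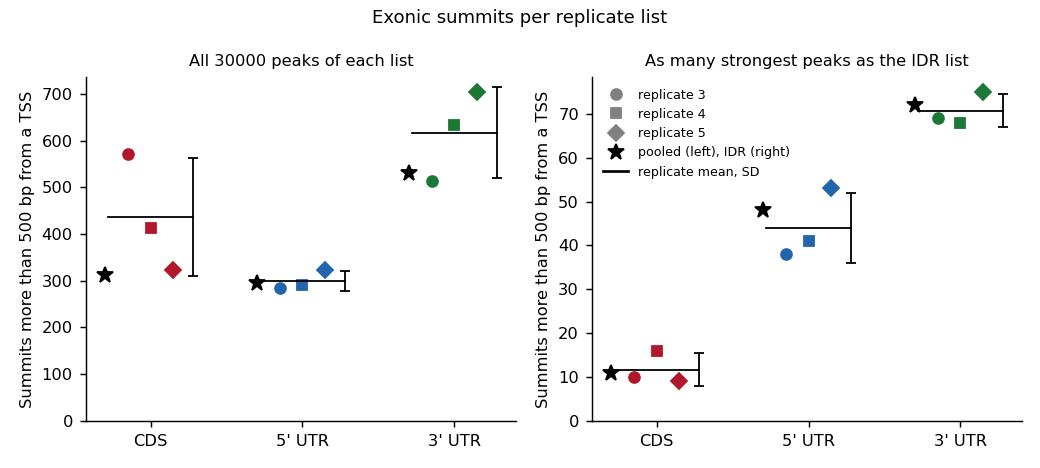
Number of summits in CDS, 5' UTR and 3' UTR, more than 500 bp from a TSS, in each replicate's list (left, all 30000 peaks; right, as many of the strongest as the IDR list holds). Symbols are replicates, the line and bar are their mean and SD (n = 3), and the star is the pooled list on the left and the IDR list on the right. CDS summits run from 324 to 572 on the left and from 9 to 16 on the right.

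Exonic summits, and CDS summits above all, were weak peaks of the pooled list. The authors' signal value was used only to rank peaks within a list, 1 being the strongest. The median rank was 20032 over all members, 24436 for CDS, 17659 for 5' UTR and 18648 for 3' UTR. Intronic summits had a median rank of 16110 and promoter summits, those within 500 bp of a TSS, one of 10209. CDS summits made up 0.153% of the ranks of the IDR list, 0.409% of ranks 7177 to 15000, 1.13% of ranks 15001 to 22500 and 2.45% of the last 7500 ranks. The share of 5' UTR summits moved less across the same ranges, at 0.669%, 0.856%, 1.31% and 1.09%. For 3' UTR summits it was 1.00%, 1.37%, 2.48% and 2.21%. The plot by rank shows the CDS share climbing to the end of the list, while the UTR shares levelled off.

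**Figure D2:**
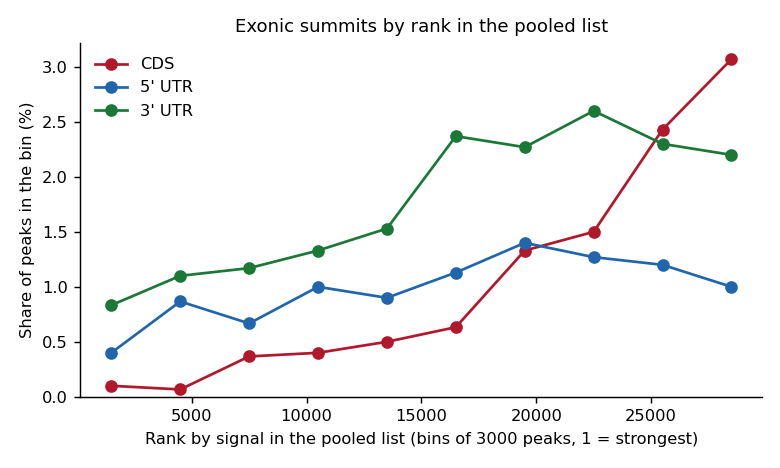
Share of pooled peaks whose summit lay in CDS, 5' UTR or 3' UTR (vertical axis, percent) in successive bins of 3000 ranks by signal (horizontal axis, 1 = strongest). The CDS share goes from 0.100% in the first bin to 3.07% in the last, the 3' UTR share from 0.833% to 2.20% and the 5' UTR share from 0.400% to 1.00%.

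In the IDR list, 131 of the 1138 members were found, or 11.5% (9.79 to 13.5%), beside 23.9% of all pooled peaks. The IDR list is the set of pooled peaks of highest signal, so this share restates the ranks. It was 3.53% for CDS (11 summits, 1.98 to 6.20%), 16.3% for 5' UTR (48 summits, 12.5 to 20.9%) and 13.6% for 3' UTR (72 summits, 10.9 to 16.7%). Intronic summits were in the IDR list at 21.1%, intergenic summits at 19.1% and promoter summits at 36.3%. The intervals of CDS and 3' UTR thus lay under the intronic interval (20.4 to 21.8%), while that of 5' UTR overlapped it. The CDS interval lay under those of both UTRs. The deposited −log10 q-value stood at its ceiling of 4.37 for 237 members (20.8%), beside 38.8% of all pooled peaks. Its median was 0.628 for CDS members, 1.42 for 5' UTR members and 1.26 for 3' UTR members, beside 2.11 over the pooled list.

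A peak of all 3 replicate lists overlapped 466 members, or 40.9% (38.1 to 43.8%), beside 59.8% of all pooled peaks. The pooled list was made from the same alignments, so this overlap is a description and not an independent check. CDS members were found in all 3 lists least often, at 67 of 312 (21.5%, 17.3 to 26.4%), and 22 of them overlapped a peak in none. The share was 55.6% for 5' UTR members and 44.3% for 3' UTR members, beside 57.2% for intronic and 74.7% for promoter summits. Replicate 3 recovered 67.3% of CDS members, replicate 4 recovered 54.2% and replicate 5 recovered 49.0% (56.8 ± 9.42%, SD, n = 3). For 5' UTR members the values were 75.6%, 81.7% and 79.0% (78.8 ± 3.06%, SD, n = 3), and for 3' UTR members 71.4%, 74.6% and 71.6% (72.5 ± 1.80%, SD, n = 3). The 3 CDS values were all under the lowest 3' UTR value, and the 3' UTR values all under the lowest 5' UTR value. No test over 3 replicates was made, because an exact two-sided sign-flip permutation test cannot go under p = 0.25.

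Within ranges of rank the shares changed with rank in every class. Among the ranks of the IDR list, all 11 CDS members, 97.9% of 5' UTR members and 95.8% of 3' UTR members were in all 3 lists, beside 99.1% of intronic summits. Among ranks 7177 to 15000 the shares were 71.9%, 82.1% and 83.2%, beside 85.4%. Among ranks 15001 to 22500 they were 17.6%, 45.9% and 34.4%, beside 39.2%, and among the last 7500 ranks 9.78%, 20.7% and 7.83%, beside 16.1%. The CDS share was thus under that of introns in the 3 ranges outside the IDR list, and the 3' UTR share in every range. The 3' UTR share was the lowest in the last range. The 5' UTR share was above that of introns in the last 2 ranges. Outside the IDR list the CDS shares rest on 23 of 32, 15 of 85 and 18 of 184 summits.

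**Figure D3:**
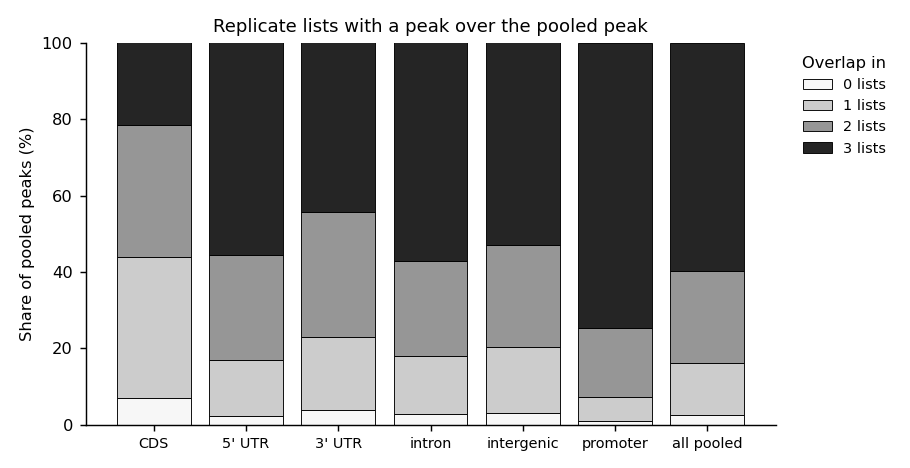
Share of pooled peaks in each class (percent) that overlap a peak, by 1 bp or more, in 0, 1, 2 or 3 of the replicate lists. All 3 lists hold a peak over 21.5% of CDS members, 55.6% of 5' UTR members and 44.3% of 3' UTR members, beside 59.8% of all pooled peaks.

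The 11 CDS members of the IDR list were led by otp and Pde1c. The otp summit (gene FBgn0015524, peak at chr2R:20884419-20884774, dm6) lay in the last exon of orthopedia, which codes for a homeodomain factor of the nervous system and hindgut. Its rank was 419 in replicate 3, 345 in replicate 4 and 468 in replicate 5, and 408 in the pooled list. The Pde1c summit (FBgn0264815, chr2L:11816346-11816788), in the last exon of a calcium/calmodulin-dependent phosphodiesterase, ranked 492, 396 and 398 in the replicates and 415 in the pooled list. Both were thus near the top of every list. Both summits lay in exons of all 9 transcripts that span them. The Pde1c summit was GC-rich, at 68.3% in the 101 bp around it, with 23.8% and 25.7% in flanks centred 300 bp to the right and left. The otp window held 63.4% GC, beside 27.7% and 35.6% in its flanks.

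The third, l(3)mbn (FBgn0002440, chr3L:6124650-6124961), ranked 1604, 2205 and 1817 in the replicates, and its summit was 11 bp from the edge of a 63-bp internal exon. The klar summit (FBgn0001316, chr3L:506177-506377) lay in klarsicht, which codes for a nuclear-envelope protein that moves nuclei and vesicles, and ranked 2968, 4342 and 9341. The CG10962 summit (FBgn0030073, chrX:8973297-8973495) ranked 3949, 6660 and 5545. These 3 peaks were in every list but differed in rank between replicates, and the klar peak was weakest in replicate 5.

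Tim17b1 codes for a Tim17-type subunit of mitochondrial protein import, and its summit (FBgn0037310, chr3R:5300762-5300858) ranked 5530, 5233 and 14858. The CG4822 summit (FBgn0031220, chr2L:117885-117982) ranked 5469, 8719 and 8856. Snx27 codes for a sorting nexin of endosomes, and its summit (FBgn0052758, chrX:5737215-5737330) ranked 7245, 6906 and 10005. The strength of these peaks was uneven, each being weakest in replicate 5. The scrib summit (FBgn0263289, chr3R:26566952-26567315), in the gene for the epithelial polarity scaffold Scribble, ranked 9612, 6552 and 8755. The su(w[a]) summit (FBgn0003638, chrX:1041418-1041781), in a gene for a splicing regulator, ranked 7830, 6633 and 7340. The jing summit (FBgn0086655, chr2R:6503050-6503413), in a zinc-finger factor with roles in the central midline and trachea, ranked 8783, 6313 and 24121. Only 4 of the 11, otp, Pde1c, l(3)mbn and CG10962, ranked within the length of the IDR list in every replicate.

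Not all of these 11 were coding in every transcript. Of the 11, 7 were exonic in each protein-coding transcript that spans the summit. The CG10962 summit was exonic in 1 of 12 spanning transcripts, since the gene rdgA spans it too, and the Tim17b1 summit in 1 of 16, since mtd spans it. The CG4822 summit was exonic in 9 of 12 and the su(w[a]) summit in 2 of 7. The summit was richer in GC than both flanks in 6 of the 11 and poorer than both in 1, CG4822, with 36.6% beside 44.6% and 49.5%.

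**Figure D4:**
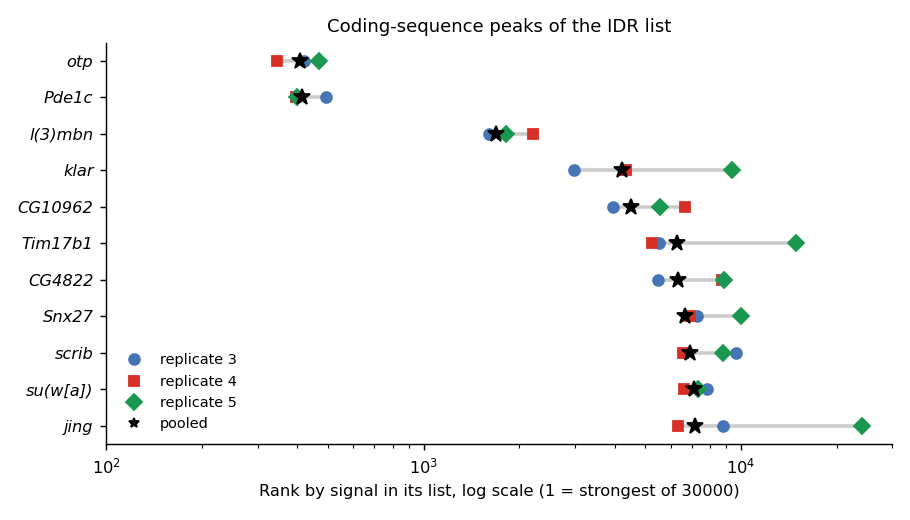
Rank by signal (log axis, 1 = strongest of 30000) of the 11 CDS members of the IDR list in replicates 3, 4 and 5 and in the pooled list. The ranks of otp and Pde1c lie between 345 and 492 in all lists, and those of jing between 6313 and 24121.

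The 48 members of the IDR list in 5' UTRs were led by Fbl6, cic and Raf. The Fbl6 summit, in the first exon of an F-box gene, ranked 630, 632 and 598 in replicates 3, 4 and 5. The cic summit lay in the first exon of capicua, an HMG-box repressor that receptor tyrosine kinase signalling relieves, and ranked 772, 644 and 981. The Raf summit lay in an internal exon of the kinase gene of the same pathway and ranked 1079, 763 and 769. All of these ranks lay between 598 and 1079. The Mef2 summit, in the gene for a muscle transcription factor, ranked 1296, 1165 and 2398, and the CG15247 summit ranked 1384, 1598 and 1222. The CAP summit, in the gene for a sorbin-type adaptor, ranked 1878, 1218 and 1609. The dos summit, in the gene for an adaptor of receptor tyrosine kinases, ranked 1752, 1155 and 1388, and the eas summit, in an ethanolamine kinase gene, 1601, 2381 and 6658. Of these 8, eas was the one whose rank differed most between replicates. Base composition ran from 19.8% GC at CG15247 and 24.8% at dos to 56.4% at Mef2.

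The 5' UTR members were close to promoters and to other transcripts' introns. Their median distance to the nearest TSS was 841 bp, beside 1492 bp for CDS and 2058 bp for 3' UTR members. First exons held 158 of the 295 and internal exons 128. Only 141 (47.8%, 42.2 to 53.5%) were exonic in every protein-coding transcript that spans them, beside 250 of 312 CDS members (80.1%) and 435 of 531 3' UTR members (81.9%). Of the 154 that were intronic in some transcript, 37 were in the IDR list (24.0%), and of the 141 exonic in all, 11 were (7.80%). These shares stand beside 21.1% of intronic summits and 3.53% of CDS members. No interval was computed for these subsets, so their shares are not ordered against those values. An IDR summit lay within 1000 bp of 96 of the 5' UTR members (32.5%), of 40 CDS members (12.8%) and of 69 3' UTR members (13.0%). The same share was 19.5% over all pooled peaks, 19.8% for intronic and 23.1% for promoter summits.

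The strongest member of any class was in the 3' UTR of Cals, which codes for the cadherin-family protein Calsyntenin-1. It lay on chromosome 4 (FBgn0039928, chr4:1113131-1113491) and ranked 292, 264 and 260 in replicates 3, 4 and 5, and its summit window held 23.8% GC. The stas summit ranked 638, 496 and 469, and the CG7872 summit ranked 701, 466 and 730. The by summit, in the gene for the adhesion protein tensin, ranked 547, 670 and 722. The weakest of the ranks of these 4 peaks was 730. The CG33307 summit ranked 911, 578 and 511, the scf summit 862, 753 and 1071, and the CG5984 summit 1021, 791 and 656. The NetB summit, in the gene for the axon guidance cue Netrin-B, ranked 942, 1574 and 1513. The 8 windows held 23.8 to 41.6% GC.

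Most 3' UTR members were exonic whichever transcript was used. The last exon held 441 of the 531, and a single-exon transcript held 76. The median distance from the summit to the annotated 3' end was 335 bp in UTRs with a median length of 1193 bp, and 187 summits (35.2%) were within 200 bp of that end. A gene on the opposite strand ended within 500 bp of 70 of them (13.2%, 10.6 to 16.3%). Host genes without introns in the spanning transcripts held 65 of the 3' UTR members, 21 of the CDS members and 1 of the 5' UTR members. A splice site lay within 50 bp of 77 CDS members (24.7%), 47 5' UTR members (15.9%) and 1 3' UTR member.

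The classes differed in base composition. In the 101 bp around the summit, the median GC content was 53.5% for CDS members, 41.6% for 5' UTR members and 36.6% for 3' UTR members, beside 36.6% for intronic and 36.6% for all pooled summits. CDS medians in replicates 3, 4 and 5 were 55.4%, 53.5% and 53.5% (54.1 ± 1.14%, SD, n = 3). Those of the 5' UTR were 41.6%, 42.6% and 41.6% (41.9 ± 0.572%), and those of the 3' UTR 36.6%, 36.6% and 34.7% (36.0 ± 1.14%). The order of the classes was the same in every replicate, and their values did not overlap. All eligible CDS in the genome had 53.4% GC, eligible 5' UTR 45.7% and eligible 3' UTR 35.2%. Of the 312 CDS windows, 204 lay wholly in CDS, and their median was 57.4%, beside the 53.4% of eligible CDS.

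GC content peaked at CDS summits, was nearly flat around 5' UTR summits and was lower at the summit than beside it in the 3' UTR, intronic, promoter and intergenic classes. The rule makes every CDS summit base coding. The exonic share around CDS summits fell to 63.8% at 300 bp to the right and 59.0% at 300 bp to the left. The flanks of CDS members thus mix exonic sequence with other, and the height of the CDS summit over them depends on this. The median difference between the summit window and the window 300 bp to the right on the reference strand was 5.94 percentage points for CDS members, and 219 of 312 (70.2%, 64.9 to 75.0%) were richer in GC at the summit. In replicates 3, 4 and 5 it was 6.93, 5.94 and 5.94 (6.27 ± 0.572, SD, n = 3). For 3' UTR members it was −2.97, for intronic summits −4.95, for promoter summits −3.96 and for intergenic summits −5.94. The 5' UTR members had 0.990, and −0.990, 0.990 and −0.990 in the replicates, so the replicates differed in direction there. In the 199 CDS members in which the centre of the right flank was exonic, the difference was only 1.98 percentage points, beside 5.94 over all 312.

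**Figure D5:**
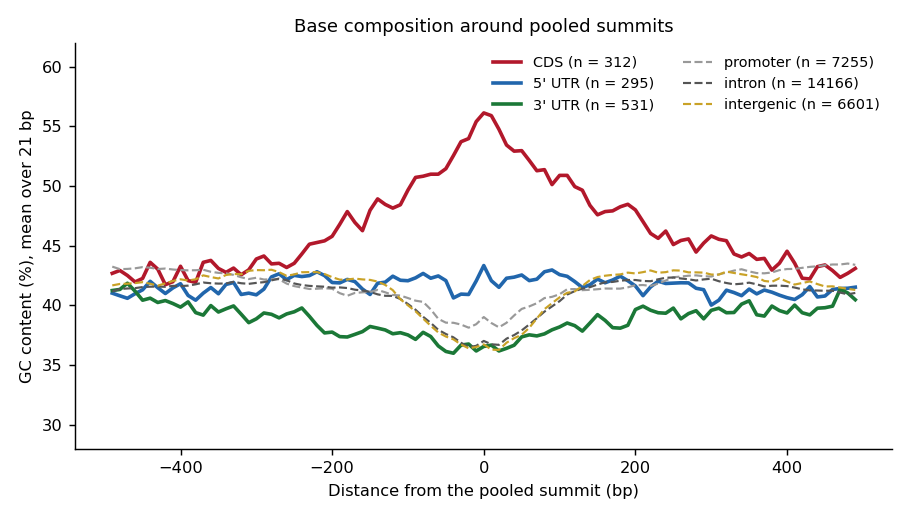
Mean GC content in 21-bp windows (percent) against distance from the pooled summit (bp, reference strand), for the 3 exonic classes (solid) and for promoter, intronic and intergenic summits (dashed). The CDS curve is highest at the summit, where the base is coding by rule, while 63.8% of CDS members are exonic 300 bp to the right. The 5' UTR curve is nearly flat, and the 3' UTR curve lies lowest over most of the range.

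Among the strongest members of the pooled list the UTR classes were AT-rich and the CDS class was not. The 48 5' UTR members of the IDR list had a median of 37.6% GC and the 72 3' UTR members 31.7%, beside 29.7% for intronic and 31.7% for promoter summits of that list. The 11 CDS members had 59.4%, and across the pooled rank ranges the CDS median was 59.4%, 55.9%, 55.4% and 53.5%. For introns it moved the other way in the pooled list, at 29.7%, 35.6%, 39.6% and 40.6%. The higher CDS median among the strongest peaks was not repeated in every replicate. In as many strongest peaks as the IDR list holds, CDS medians were 53.5%, 55.4% and 45.5% in replicates 3, 4 and 5. These rest on 10, 16 and 9 summits, and the full lists had 55.4%, 53.5% and 53.5%. Intronic medians were 29.7%, 29.7% and 30.7%, beside 36.6% in each full list. In the IDR list the summit was poorer in GC than both flanks in 39 of 72 3' UTR members and richer than both in 12. In the 48 5' UTR members it was poorer than both in 21 and richer than both in 16.

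Homeodomain words were less frequent at the CDS summits than over all pooled summits. Every word was searched on both strands in the 101 bp around each summit, and a match is a description of letters, not a bound site. TAATTA, the palindromic homeodomain word, was in 58 member windows (5.10%, 3.96 to 6.53%), beside 8.47% of all pooled summit windows. It was in 4 of 312 CDS windows (1.28%, 0.500 to 3.25%), 15 5' UTR windows (5.08%, 3.11 to 8.22%) and 39 3' UTR windows (7.34%, 5.42 to 9.88%). The right and left flanks held it in 5.76% and 6.10% for 5' UTR members and in 8.66% and 7.91% for 3' UTR members. It was thus not more frequent at the summit in either UTR class. Over all pooled peaks the flanks held it in 6.52% and 6.62%, under the 8.47% at the summit. At the CDS flanks it was in 5.77% to the right and 4.81% to the left, but the centre of the right flank was exonic in 199 of the 312 CDS members (63.8%). In those 199, an alternative added after seeing the data, it was in 4 summit windows (2.01%, 0.784 to 5.05%) and 2 flank windows (1.01%, 0.276 to 3.59%), and the intervals overlapped. The 4 CDS windows were in Cyp4ac1, CG15594, CG12268 and santa-maria, with pooled ranks of 26028, 26411, 28931 and 29188. None was in all 3 replicate lists. CAATTA was in 1.92% of CDS, 8.47% of 5' UTR and 9.60% of 3' UTR windows, beside 10.5% of all pooled windows.

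Several other words also differed in share between the classes. AATAAA, the polyadenylation signal, was in 29.0% of 3' UTR windows (25.3 to 33.0%), 23.9% of their right flanks and 23.4% of their left flanks, beside 27.1% of all pooled summit windows. It was in 3.85% of CDS and 21.4% of 5' UTR windows. AAAAAA was in 2.56% of CDS windows, 20.7% of 5' UTR windows and 122 of 531 3' UTR windows (19.6 to 26.7%), beside 23.4% of all pooled windows. For CDS, 5' UTR and 3' UTR windows, TTTATG was in 2.24%, 14.9% and 13.0%, beside 14.0%. All of these AT-rich words were thus rarest in CDS. CAGGTG, an E-box word of Snail and proneural factors, was in 23 CDS windows (7.37%, 4.96 to 10.8%), with 5.13% and 5.77% in the flanks, beside 2.50% of all pooled windows. The CDS summit and flank shares differed by less than the counting interval. CACACAC and GAGAGAG were in 8.14% and 4.41% of 5' UTR windows, beside 3.96% and 1.70% of pooled windows, with 8.81% and 4.75% in the right flanks. In 3' UTR windows they were in 5.46% and 1.69%, and in CDS windows each was in 1.60%. The word AGATAAG, which GATA factors bind, was in 1.67% of member windows, beside 1.72%. TATCGATA, the word of the DREF factor, was in 0 of 1138 member windows, which allows a share of up to 0.336% (Wilson). It was in 0.880% of all pooled windows and 2.72% of promoter windows, but in 0.304% of intronic and 0.348% of intergenic windows.

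The members lay in exons of 842 of the 13945 protein-coding genes, or 6.04%. A single member was found in 643 genes, 2 in 129, and 3 or more in the rest. The gene with the most was corto, a chromatin factor that interacts with Polycomb and trithorax group proteins, with 12 members. Its longest annotated transcript is 1 exon of 9294 bp, and 10 of the summits were in the 3' UTR and 2 in the CDS. Of the 10, 8 were spanned by 1 protein-coding transcript only. The strongest ranked 7810, 5602 and 10622 in replicates 3, 4 and 5 and was the 1 in the IDR list. In baz, which codes for the polarity protein Par-3, all 7 were in the 5' UTR, and the strongest ranked 2599, 3857 and 3477. In bun, a TSC22-type gene, 1 was in the CDS, 4 in 5' UTRs and 2 in 3' UTRs, and none was in the IDR list. In spen, which codes for an RNA-binding corepressor, all 6 were in the 5' UTR, and the strongest ranked 6561, 4984 and 4814. Another 5 genes had 5 members each, CG1888, Ppa, aqz, hth and ps, with none in the IDR list. Those of CG1888 were all in the 3' UTR, and Ppa, an F-box gene, had 2 in the CDS and 3 in the 3' UTR. Neighbouring members can overlap 1 broad replicate peak, so members of 1 gene are not independent. Summits within 364 bp of each other, the commonest peak width, put 143 members (12.6%) into 71 stretches.

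Genes of the epidermal and fibroblast growth factor (EGF and FGF) receptor pathways had members in 13 of 31 cases (41.9%), beside 6.04% of all genes. The genes of this and the other lists are not matched to others in length or in number of transcripts, and no list test was made. Of their 19 summits, 15 were in 5' UTRs, 2 in CDS and 2 in 3' UTRs, and 6 were in the IDR list. Among the ligands, the FGF genes ths and pyr had 3 and 2 members and the EGF-type gene vn had 1. Of the genes that process or carry EGF ligands, the protease gene rho had 2 and S had 1. The receptors Egfr and htl had 1 each. Inside the cell, the adaptor dos had 3, the phosphatase csw 1 and the kinase Raf 1. The inhibitor sty had 1, and the nuclear genes cic and edl 1 each. The members of the IDR list were in dos (3), sty, Raf and cic, so none of them was in a ligand or a receptor gene. The 3 dos summits had pooled ranks of 1530, 4720 and 6012.

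Homeodomain genes, the family of unpg, had members in 10 of 73 cases (13.7%, beside 6.04% of all genes), with 19 summits, of which 12 were in 3' UTRs. The Hox cofactor gene hth had 5, the POU gene vvl 3, the engrailed paralogue inv 3 and otp 2. The 2 in the IDR list were in otp and in the LIM gene Lim3, the latter ranking 7074, 5750 and 7489 in replicates 3, 4 and 5. The gene unpg itself had none. Of 20 tracheal regulators, 7 (35.0%, beside the same 6.04%) had a member, with 3 in vvl, 3 in the E-cadherin gene shg and 2 in rho. The 2 in the IDR list were in sty and Mipp1. None of the 8 in vvl, shg and rho was in the IDR list.

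Ecdysone response regulators had members in 7 of 22 cases (31.8%, beside 6.04% of all genes). The nuclear receptor genes Hr3, Hr4 and ftz-f1 had 4 each and Eip75B had 2. Those in the IDR list were in Hr4, EcR and crol, and the Hr4 summit ranked 1503, 3120 and 2604 in the replicates. Neural genes known for extended 3' UTRs had members in 4 of 22 cases (18.2%, beside 6.04%), with 3 in elav, 3 in bol, 1 in para and 1, in CDS, in pum. The strongest in elav ranked 7933, 6668 and 4793 and was in the IDR list. In the remaining lists, members were found in 2 of 22 heat shock genes (9.09%, Hsc70-3 and Hsf), 1 of 8 histone genes (12.5%, His3.3B) and 1 of 16 genes of the E(spl) and Brd complexes (6.25%, Kaz-m1). These shares stand beside 6.04% of all genes. None of their summits was in the IDR list.

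The 500-bp limit set which summits were counted. The summits nearest to it on the inside were in prage (CDS, 505 bp from a TSS) and mtd (5' UTR, 506 bp). Those nearest on the outside were in CG10654 (CDS, 497 bp) and CG1146 (5' UTR, 494 bp). Their pooled ranks were 29044, 16036, 23209 and 28989, and none of the 4 was in the IDR list. A further 2353 summits lay in exons within 500 bp of a TSS and were counted as promoter summits. The member farthest from any TSS, at 73269 bp, was in a 3' UTR of hth and ranked 14033 in replicate 4 and 25679 in replicate 5, with no overlapping peak in replicate 3.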

How the data were processed

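Peak calling by the authors, per the file descriptions, used the alignments of each replicate and of all 3 combined, with a common control library, and an IDR list was derived from the results. No source used here names the aligner, the caller, a version or the IDR threshold. The deposited signal value of each peak has no stated scale and only ranked peaks within a list. The deposited −log10 q-value runs from 0.359 to 4.37. Without read counts in the lists, the depth behind a peak is unknown, and the control was not analysed here.

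A summit (start plus the peak's offset) was assigned first to a promoter, within 500 bp of a protein-coding TSS of Ensembl release 115, then in this order to 5' UTR, CDS (stop codon included) and 3' UTR. IDR peaks were matched by coordinates, summit and signal, and replicate peaks by 1 bp of overlap. Windows of 101 bp at the summit and 300 bp to each side were read from the Release 6 genome. Gene symbols of 8 lists were matched to the annotation through current and older symbols of a RefSeq gene table; bagpipe, cut, sal, dys, blistered, BobB, BobC, phm, His2B and His3 had no match. Summits in exons of more than 1 gene, 19 in all, counted for each gene. Genes named are every CDS member of the IDR list, the 8 strongest members of each class, the 6 genes with the most members (the last 2 taken by symbol from 5 tied genes), up to 3 genes of each list, the 4 summits nearest to the limit and the gene of the member farthest from a TSS. Other genes of the lists, kibra and the 4 CDS members with TAATTA were named after their values were seen. The members and lists were chosen with earlier results of these data known. Intervals of shares are 95% Wilson intervals, and scripts were checked on simulated data. Alternatives covered the limit, the class order, the windows and flanks, the overlap and each replicate left out. Python 3.11.15, numpy 2.4.6, pandas 2.3.3, scipy 1.17.1 and matplotlib 3.10.9 were used.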

Additional observations from a re-analysis of the deposited data

How the results depend on the processing

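Of the alternatives, 47 kept their result within its spread or within 1.5 times its count, 29 moved it and 1 reversed it. Taking gene starts in place of all transcript starts gave 1714 members. The mean count of CDS summits in the replicates' own lists, with 1 replicate left out, ran from 368 to 492, the highest without replicate 5, beside 312 in the pooled list. The share of members in the IDR list was 20.8% by the q-value ceiling and 38.9% among members within the 15000 strongest pooled peaks. The share in all replicate lists was 24.7% with 50% reciprocal overlap, 8.61% with as many strongest peaks of each replicate as the IDR list holds, and 49.8 to 53.3% with 1 replicate left out, where fewer lists had to hold a peak. The GC difference over all members was −0.990 with exonic flanks only, against 0.990; for CDS it was 1.98 with these and 8.91 with the left flank, and for 3' UTR −1.98 with the left flank. Median GC content was 54.9% for CDS and 35.3% for 3' UTR within 25 bp of the summit, and 42.8% for 5' UTR within 100 bp. In subsets chosen after seeing the data, it was 35.6% for all members, 59.4% for CDS, 37.6% for 5' UTR and 31.7% for 3' UTR in the IDR list, and 57.4% for CDS windows wholly in CDS. TAATTA was in 2.02% of windows within 25 bp and 11.3% within 100 bp, which hold fewer and more letters. No paired analysis was possible because the labels give 1 group. Other causes were not tested. Lists of fixed length end in calls of low support, and without read counts the precision of a single peak is unknown. The annotation decides class membership, and a base that is exonic in 1 transcript and intronic in another was counted as exonic.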

Other observations

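Nearly all members had the same peak width. A width of 364 bp was found in 1030 of 1138 (90.5%, 88.7 to 92.1%) and in 303 of 312 CDS members (97.1%), beside 77.3% of all pooled peaks. Few members touched noncoding or transposable features, and few pooled peaks did. A noncoding gene held the summit of 28 members (2.46%), beside 5.36% of all pooled peaks. A noncoding TSS lay within 500 bp of 38 (3.34%, beside 4.38%), and an annotated transposable element held 3 (0.264%, beside 0.347%). Another protein-coding gene spanned the summit of 117 members (10.3%, 8.65 to 12.2%). The median distance to the nearest other pooled summit was 828 bp for CDS, 629 bp for 5' UTR and 905 bp for 3' UTR members, beside 727 bp over the pooled list.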
